A study of Mus musculus with 18 samples.

Results

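The collagen genes of mouse mammary tumors were followed in bulk RNA sequencing of 18 tumors. The members were the protein-coding genes whose symbol has the form of a collagen alpha chain, Col followed by a type number, the letter a and a chain number. By this rule 44 of the 57126 genes in the count table were members, of which 11 were fibrillar, 6 were basement membrane chains of type IV and 27 were other collagens. The tumors arose in female F1 hybrids of BALB/c and C57BL6/J after an adenovirus carrying Cre recombinase was injected into mammary ducts. There were 7 MaP R172H/- tumors from 7 mice and 5 MaP R245W/- tumors from 5 mice, each with a Trp53 missense allele and no second Trp53 allele in recombined epithelium. There were 6 MaP -/- tumors, with both Trp53 alleles deleted, from 4 mice, of which JM663 and JM833 gave 2 tumors each. Recombination was confined by design to the injected ductal epithelium, so fibroblasts and other stromal cells in every group kept wild-type Trp53. MaP R172H/- tumors YZ2, YZ6 and YZ10 and MaP R245W/- tumors JM1233, JM1564 and RM0014 also carried the reporter allele Rosa26 LSL-TdTomato/+.

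Collagens are triple helices of alpha chains that form the insoluble framework of the extracellular matrix. Fibrillar collagens are secreted as procollagens, mostly by fibroblasts, trimmed outside the cell, packed into fibrils and crosslinked by lysyl oxidases. Type IV chains form the sheet-like network of basement membranes beneath epithelium and around vessels, and the remaining collagens decorate fibrils, anchor basement membranes, form beaded filaments or span the cell membrane. In mammary tumors, collagen density and alignment are widely studied features of the stroma.

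Total counts per tumor ran from 23113578 to 37365062. Trp53 itself was present at 10.8 to 50.3 CPM (counts scaled to a common library size) in MaP R172H/- tumors, 9.09 to 59.0 in MaP R245W/- tumors and 9.43 to 21.6 in MaP -/- tumors, so its level overlapped between genotypes. Every MaP R172H/- library was read on a HiSeq instrument and every other library on a NovaSeq instrument, so platform and genotype cannot be told apart for that group. The study's tumor list gives all MaP R172H/- tumors as nonmetaplastic adenocarcinomas of luminal B or HER2-enriched subtype and the other tumors as triple-negative. Subtype and the R172H allele therefore cannot be told apart either. Epithelial markers were low in YZ7, JM1233 and JM779-T1, where the summed level of 11 markers was 329, 479 and 152 CPM against at least 1306 CPM in the other tumors. Fold changes that moved most without YZ7, YZ4 or JM1126 are given below with and without them.

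The regions just upstream of 4 genes are shown. Col3a1 and Col1a1 were the most abundant fibrillar genes, Col5a2 was the collagen gene called between the mutants, and Col17a1 had the largest estimated difference between them. Each sequence is the 250 bases before the annotated gene start, read on the coding strand from GRCm39, and none of its bases lies in an annotated exon. Capitals mark matches, on either strand, to the TATA box (TATAAA), the CCAAT box (the 5 letters of its name) or the GC box (GGGCGG). Col1a1 is at chr11:94826800-94827049 (plus strand), Col3a1 at chr1:45350448-45350697 (plus strand), Col5a2 at chr1:45542443-45542692 (minus strand) and Col17a1, a transmembrane collagen of hemidesmosomes, at chr19:47680534-47680783 (minus strand).
Col1a1: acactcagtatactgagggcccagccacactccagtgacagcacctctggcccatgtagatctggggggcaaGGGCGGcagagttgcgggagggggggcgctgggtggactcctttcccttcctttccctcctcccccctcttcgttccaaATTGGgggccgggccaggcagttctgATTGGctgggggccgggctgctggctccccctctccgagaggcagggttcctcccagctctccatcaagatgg
Col3a1: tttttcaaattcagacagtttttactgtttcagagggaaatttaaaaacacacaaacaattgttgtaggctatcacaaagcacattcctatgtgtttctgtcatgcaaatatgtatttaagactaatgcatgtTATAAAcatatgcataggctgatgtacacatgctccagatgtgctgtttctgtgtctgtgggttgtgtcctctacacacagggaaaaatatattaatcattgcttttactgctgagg
Col5a2: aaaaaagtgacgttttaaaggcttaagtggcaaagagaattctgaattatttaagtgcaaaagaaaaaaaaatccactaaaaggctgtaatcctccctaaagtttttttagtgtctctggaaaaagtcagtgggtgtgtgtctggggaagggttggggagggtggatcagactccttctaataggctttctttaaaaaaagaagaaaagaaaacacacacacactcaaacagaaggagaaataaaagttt
Col17a1: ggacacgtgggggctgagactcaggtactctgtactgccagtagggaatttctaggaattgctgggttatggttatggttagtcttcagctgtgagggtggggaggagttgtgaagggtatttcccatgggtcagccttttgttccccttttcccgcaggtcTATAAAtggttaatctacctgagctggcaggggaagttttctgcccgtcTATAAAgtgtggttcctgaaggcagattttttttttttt
The Col1a1 region held CCAAT boxes 99 and 73 bases upstream of the start and a GC box 178 bases upstream, in a sequence of 64.8% GC. Col3a1 and Col5a2, which lie tail to tail on chromosome 1, had upstream regions of 35.2% and 36.0% GC. Col3a1 held a TATA box 117 bases upstream, Col17a1 held TATA boxes 88 and 39 bases upstream, and Col5a2 held none of these letters. Over the 44 collagen genes, 15.9% of upstream regions held a TATA box, 34.1% a CCAAT box and 47.7% a GC box, against 11.9%, 36.5% and 36.3% of 21757 upstream regions of the same length. A match is a description of the letters only.

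Fibrillar and type IV chains were the most abundant collagens. Levels of different genes were compared as mean CPM per kilobase of annotated exon over 18 tumors. Col3a1, which co-assembles with type I collagen in loose connective tissue, led at 274, followed by Col1a1, a chain of type I collagen, at 218. Col4a1, the main chain of the basement membrane network, was at 198, and Col1a2, the partner of Col1a1, at 138. Col18a1, a basement membrane proteoglycan and precursor of endostatin, was at 101, Col4a2 at 90.8, Col12a1, which binds to the surface of fibrils, at 89.4, and the beaded filament chain Col6a1 at 88.0. Within a tumor the leading gene on this scale was Col3a1 in 7 tumors, Col4a1 in 6, Col1a1 in 4 and Col18a1 in 1. Using the longest transcript as length, Col1a2 moved up to the second place. At the low end, Col19a1, Col22a1 and Col26a1 never exceeded 0.833, 2.42 and 2.69 CPM.

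Collagen genes took 1.28% ± 0.34 (SD, n = 7) of all counts in MaP R172H/- tumors, 2.24% ± 1.60 (SD, n = 5) in MaP R245W/- tumors and 1.29% ± 0.23 (SD, n = 6) in MaP -/- tumors. The ranges were 0.603 to 1.68%, 0.895 to 4.84% and 1.05 to 1.73%, and the groups overlapped. The 5 MaP R245W/- tumors were at 2.65% (JM1233), 0.895% (JM1564), 1.56% (RM0014), 4.84% (JM1126) and 1.25% (JM1133). Without JM1126 the MaP R245W/- mean was 1.59% ± 0.76 (SD, n = 4). In bulk tissue, fewer collagen-producing cells and less collagen RNA per cell cannot be told apart. The fibrillar genes made up 0.545% ± 0.184, 1.21% ± 1.10 and 0.613% ± 0.171 of counts in MaP R172H/-, MaP R245W/- and MaP -/- tumors, with 2.96% in JM1126 and 1.61% in JM1233. The type IV share was 0.268% ± 0.112, 0.266% ± 0.059 and 0.235% ± 0.066. The plot of counts on collagen genes shows these shares by tumor.

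**Figure D1:**
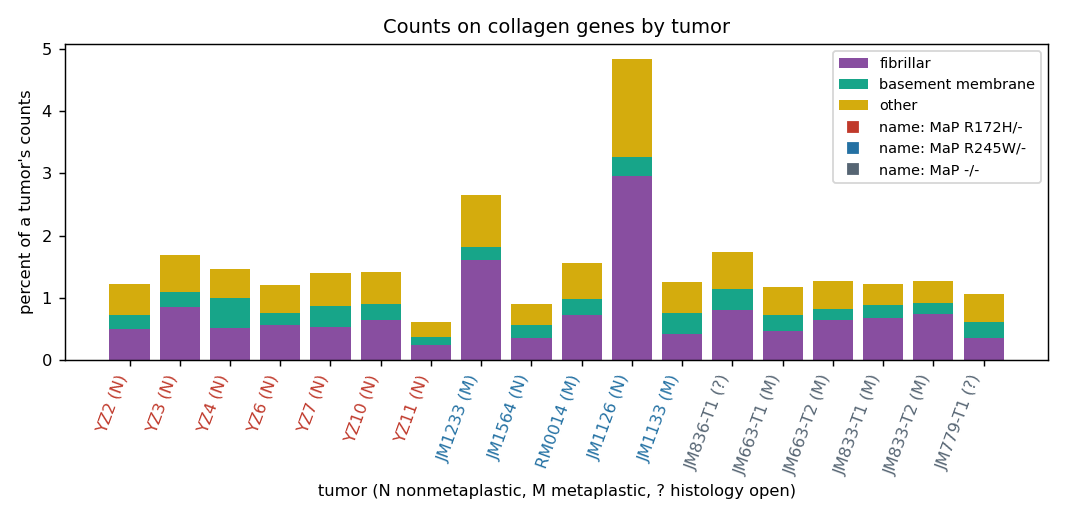
Percent of each tumor's counts on fibrillar, basement membrane and other collagens, with tumor names coloured by genotype and marked nonmetaplastic (N), metaplastic (M) or open (?). JM1126 reached 4.84% and JM1233 2.65%, and YZ11 was lowest at 0.603%.

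Collagen genes varied more between tumors than most genes did. The ratio of the highest to the lowest CPM over 18 tumors had a median of 26.0 over the 40 collagen genes with more than 3 counts in every tumor, against 3.99 over 13599 protein-coding genes that met the same minimum. The median was 27.0 for fibrillar, 13.9 for basement membrane and 28.3 for other collagens. Col4a2 had the narrowest range, 3.64-fold, followed by Col4a1 at 3.98-fold and the basement membrane zone collagen Col15a1 at 4.32-fold. Col2a1, the fibrillar collagen of cartilage, had the widest, 5068-fold. Most of the extremes came from a few tumors. JM1126 held the highest value of 16 collagen genes, 7 of them fibrillar, and YZ7 that of 11. JM779-T1 held the lowest value of 14 and YZ11 that of 10. The heatmap of all 44 genes shows these tumors as columns that stand apart.

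**Figure D2:**
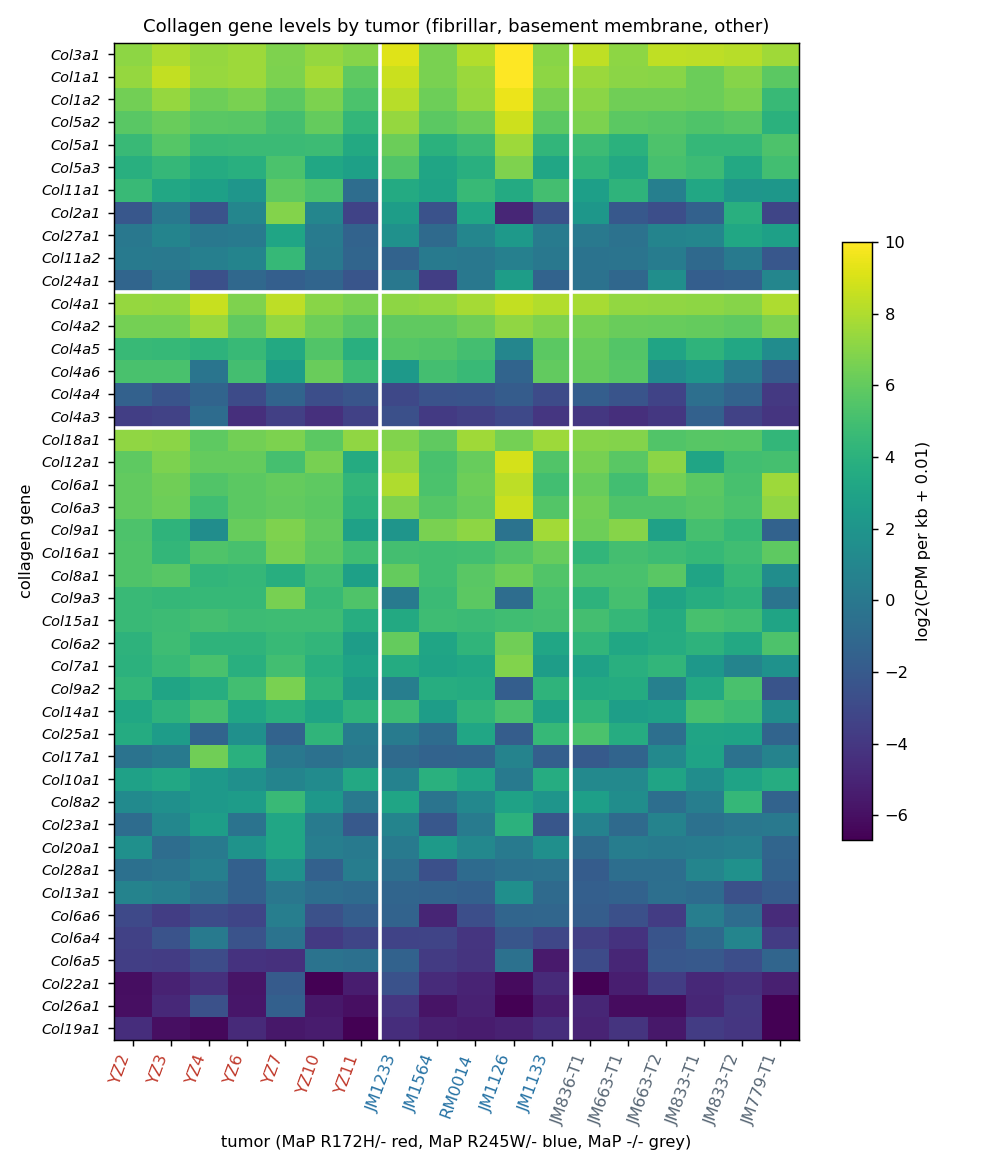
Level of each collagen gene (rows) in each tumor (columns) as log2(CPM per kb + 0.01), with white lines between classes and genotypes. JM1126 is brightest for the upper fibrillar genes, while Col4a1 and Col4a2 stay within a 4-fold range across all 18 tumors.

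The JM1126 pattern covered type I, III, V, VI and XII chains together. In this MaP R245W/- sarcoma Col3a1 was at 11088 CPM, Col1a2 at 9049, Col12a1 at 7520, Col1a1 at 7493, Col6a3 at 4842 and Col5a2 at 4652. The next highest tumor for Col3a1, Col1a2, Col12a1, Col1a1 and Col5a2 was JM1233 of the same genotype, with Col3a1 at 6047 CPM and Col1a1 at 2722. Col7a1, which forms anchoring fibrils under stratified epithelium, was at 1200.2 CPM in JM1126 against 62.8 to 121 in the other MaP R245W/- tumors. The summed level of 12 fibroblast markers was 2557 CPM in JM1126 and 1504 in JM1233, each above all 7 MaP R172H/- tumors, whose highest was 760 CPM. JM779-T1, with 1640 CPM of fibroblast markers, had the lowest Col1a1 of all tumors (365 CPM), the lowest Col1a2 (295 CPM) and the lowest Col5a2. Its Col6a1 was at 1097 CPM and its Col6a3 at 1822.5 CPM, the highest in the MaP -/- group for both. The part of fibroblast content in these values was not tested.

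YZ7 stood apart in several cartilage-type chains, though not in all. Col2a1 was at 1134.5 CPM in YZ7 against 0.813 to 18.4 in the other MaP R172H/- tumors. Col11a2, which helps nucleate cartilage fibrils, was at 169 CPM against 3.12 to 12.9 there. Its partner Col11a1 was at 759 CPM, and the fibril-associated chains Col9a2 and Col9a3 were at 312 and 430 CPM, each the highest of the 18 tumors. Col9a1 was at 548 CPM in YZ7, the highest of the MaP R172H/- group but below JM1133 at 1020.2. Col10a1 went the other way, at 5.68 CPM in YZ7, the lowest of the MaP R172H/- group (up to 32.2). Among cartilage markers, Acan was at 68.1 CPM and Cnmd at 75.9 in YZ7, each the highest of the 18 tumors. JM779-T1 was close in Acan, at 61.4 CPM, with Col2a1 at 0.905 CPM. Matn1 was at 0.0440 and at most 0.101 in any tumor. Sox9, the main chondrocyte regulator, was at 7.26 CPM in YZ7, the lowest of the MaP R172H/- group (up to 93.5), and the cartilage matrix gene Comp was at 1.497 (up to 66.4). The sum of 9 cartilage markers was 201 CPM in YZ7 within a MaP R172H/- range of 22.4 to 201. Sox6, a partner of Sox9 in chondrocytes, was at 256 CPM. The part of other cell types in these values was not tested.

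Col17a1 was highest in YZ4, at 501 CPM. YZ6 followed at 88.8 CPM, JM833-T1 at 47.3, and the remaining 15 tumors were at 1.51 to 13.7. YZ4 also had Krt14 at 627 CPM, Trp63 at 120 and 2560 CPM summed over 6 basal epithelial markers. The same sum was 7255 CPM in JM1126, where Col17a1 was at 10.3. Trp63 was highest in YZ7, at 188 CPM, where Col17a1 was at 6.03. In JM1233 Trp63 was at 51.8 CPM and Col17a1 at 3.13. YZ6, second in Col17a1, had Trp63 at 25.7 CPM and Krt14 at 100. Col4a1 and Col4a2, neighbours on chromosome 8, were highest in YZ4 at 2906 and 1295 CPM. On the same chromosome, Lamp1, Cul4a and Tfdp1 were at 10308, 2661 and 1935 CPM in YZ4 and at most 713, 227 and 236 CPM in any other tumor. Whether that region bears on Col4a1 and Col4a2 was not tested.

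Among basement membrane chains, the levels of Col4a5 and Col4a6 separated tumors that Col4a1 and Col4a2 did not. Col4a1 ran from 731 to 2906 CPM in MaP R172H/- tumors (median 1196) and from 936 to 1813 in MaP -/- tumors (median 1160). In MaP R245W/- tumors it was at 1050 (JM1233), 1176 (JM1564), 1633 (RM0014), 2663 (JM1126) and 2049.5 (JM1133). Col4a6, which pairs with Col4a5 in epithelial basement membranes, ran from 6.69 to 575 CPM in MaP R172H/- tumors (median 258), where YZ4 was lowest and YZ7 second lowest at 47.4. It ran from 2.04 to 529 CPM in MaP -/- tumors (median 27.4). In MaP R245W/- tumors it was at 37.6 (JM1233), 251 (JM1564), 200 (RM0014), 3.13 (JM1126) and 507 (JM1133). The groups overlapped for each of these genes. Col4a6 was under 40 CPM in 7 tumors, namely YZ4, JM1233, JM1126, JM663-T2, JM833-T1, JM833-T2 and JM779-T1. Col4a5 was lowest in JM1126 at 18.5 CPM and next lowest in JM779-T1 at 24.7, and ranged from 77.3 to 645 CPM in the other tumors. Col9a1, a fibril-associated chain, had its lowest levels in the same pair of tumors, 1.81 CPM in JM779-T1 and 3.97 in JM1126, and its highest in JM1133 at 1020.2 CPM. Sox10 was at 3.20, 4.13 and 7.55 CPM in JM779-T1, JM1126 and JM1233 and at 56.0 to 610 in the other tumors. JM1233 had Col4a5 at 456 CPM and Col9a1 at 20.5 CPM. Whether Sox10 bears on these chains was not tested. Col4a3 and Col4a4, the partners in kidney and lung basement membranes, stayed at or below 5.76 and 7.34 CPM.

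**Figure D3:**
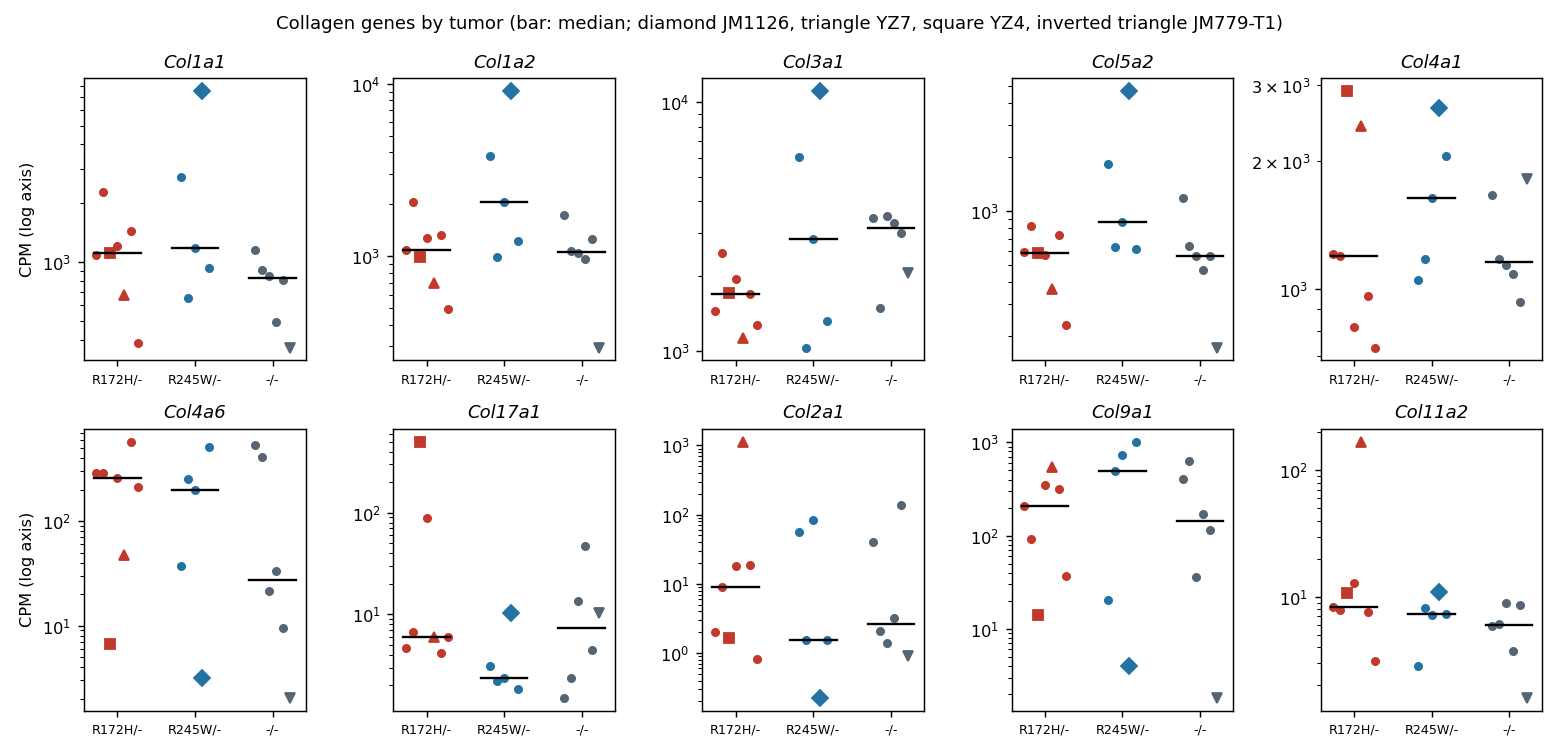
CPM (log axis) of 10 collagen genes by genotype, 1 point per tumor with a bar at the median. Col5a2 overlaps between the genotypes with JM1126 highest at 4652 CPM, Col17a1 is highest in YZ4 (501 CPM) and Col2a1 and Col11a2 in YZ7.

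Between MaP R172H/- and MaP -/- tumors no collagen gene passed the threshold. The comparison addresses how a missense allele differs from loss of Trp53. Of 41 collagen genes tested with edgeR's quasi-likelihood test, 0 were at a Benjamini-Hochberg FDR below 0.05, where 8.4% of 20954 genes were (3.67% higher and 4.73% lower). At an unadjusted p below 0.05 there were 6 of 41, 4 higher (Col7a1, Col11a2, Col13a1 and Col20a1) and 2 lower (Col3a1 and Col24a1), against 24.7% of all genes. For 0 of the 41 did the groups fail to overlap, against 2.01% higher and 2.62% lower over all genes. The DESeq2 Wald test called Col13a1 higher and Col3a1 lower, and its own share over all genes was not taken. Col3a1 ran from 1127 to 2486 CPM in MaP R172H/- tumors (median 1697) and from 1492 to 3507 in MaP -/- tumors (median 3139). Here 5 of 6 MaP -/- tumors were above every MaP R172H/- tumor but YZ3. Its log2 fold change was -0.72 (SE 0.25), at an FDR of 0.0927 with edgeR and 0.0432 with DESeq2, and without JM663-T1 edgeR also called it. Col17a1 had the largest log2 fold change, 2.77 (SE 1.34, FDR 0.222), which was 0.54 without YZ4. The log2 fold change of Col2a1 was 2.48 (SE 1.78, FDR 0.412), and -1.85 without YZ7. That of Col11a2 was 2.44 (SE 0.90, FDR 0.113), and 0.57 without YZ7. The lowest fold changes were those of Col24a1, a minor fibrillar collagen of bone (-1.48, SE 0.58, FDR 0.131), Col25a1 (-0.92, SE 1.03) and Col27a1 (-0.78, SE 0.75). Col24a1 levels were low, 1.16 to 6.18 CPM in MaP R172H/- and 2.22 to 21.8 in MaP -/- tumors. The median log2 fold change was -0.04 over 11 fibrillar, 0.29 over 6 basement membrane and 0.14 over 24 other collagens, beside 0.0027 over all genes.

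Between MaP R245W/- and MaP -/- tumors no collagen gene passed the threshold either. Here 0 of 42 collagen genes tested were at an FDR below 0.05 with edgeR, beside 0.0% of 21452 genes, and DESeq2 called 0 collagen genes. At an unadjusted p below 0.05 there were 4 of 42, all higher, against 11.8% of all genes. These were Col1a1, Col1a2, Col5a2 and Col20a1. Col1a1 was at 2722 (JM1233), 655 (JM1564), 1181 (RM0014), 7493 (JM1126) and 938 CPM (JM1133) in MaP R245W/- tumors and ran from 365 to 1153 in MaP -/- tumors (median 827). The 5 tumors thus included 3 above the MaP -/- range and 2 within it. Its log2 fold change was 1.77 (SE 0.60, FDR 0.36), and 0.85 without JM1126. That of Col1a2 was 1.69 (SE 0.59, FDR 0.36), and 0.93 without JM1126. Col20a1, a fibril-associated chain, had a log2 fold change of 1.34 (SE 0.48, FDR 0.362) at levels of 5.82 to 28.9 CPM against 2.20 to 7.56. The largest rises by estimate were Col23a1, a transmembrane collagen (1.86, SE 0.97, FDR 0.471), and Col7a1 (1.84, SE 0.88, FDR 0.44). Without JM1126 these were -0.35 and 0.03. The largest falls by estimate were Col6a4 (-2.07), Col17a1 (-1.75) and Col28a1 (-1.09), with FDR between 0.428 and 0.537. Col6a4 was at -0.70 and Col28a1 at -0.43 without JM833-T2, and Col17a1 at -0.71 without JM833-T1. Over the 11 fibrillar genes 9 were above 0 with a median of 0.75, and 8 with a median of 0.25 without JM1126. The medians over 6 basement membrane, 25 other and all tested genes were 0.25, 0.41 and 0.02.

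Col5a2 was the only collagen gene past the threshold in the direct comparison of the mutants. It codes for a chain of type V collagen, which sets the diameter of type I fibrils. Col5a2 ran from 230 to 826 CPM in MaP R172H/- tumors (median 582). In MaP R245W/- tumors it was at 1828 (JM1233), 631 (JM1564), 862 (RM0014), 4652 (JM1126) and 612 CPM (JM1133). The groups overlapped, since YZ3 and YZ10, at 826 and 735 CPM, were above 2 of the MaP R245W/- tumors. Its log2 fold change was -1.63 (SE 0.50, FDR 0.0492), 3.09-fold lower in MaP R172H/- tumors in a fit of all 18 tumors. It was -0.81, at an FDR of 0.267, without JM1126. The call held without JM1564, RM0014 or JM1133 (FDR 0.0347 to 0.0499, edgeR) and was lost without any 1 of the other 9 mutant tumors and under most other settings tried. Of 43 collagen genes, 1 was at an FDR below 0.05, against 9.4% of 22481 genes (6.49% lower and 2.91% higher), and 0 also had an absolute log2 fold change above 2, against 2.34%. No collagen gene had groups that did not overlap, against 4.05% lower and 1.78% higher over all genes.

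The fibrillar genes lay mostly below 0 in this comparison. At an unadjusted p below 0.05 there were 10 of 43 collagen genes, 8 lower and 2 higher, against 25.9% of all genes. The 8 were Col1a1, Col1a2, Col3a1, Col5a1, Col5a2, Col24a1, Col6a1 and Col6a3. Col1a2 ran from 491 to 2054 CPM in MaP R172H/- tumors (median 1092). In MaP R245W/- tumors it was at 3794, 985, 2074.5, 9049 and 1227 CPM, in the order given for Col5a2. Its log2 fold change was -1.60 (SE 0.50, FDR 0.0546), and -0.82 without JM1126. Col3a1 in MaP R245W/- tumors was at 6047, 1034, 2824, 11088 and 1318 CPM, the order again that of Col5a2. Its log2 fold change was -1.42 (SE 0.45, FDR 0.0568), and -0.74 without JM1126. Col24a1 had the lowest estimate, -2.10 (SE 0.80, FDR 0.105), and -0.61 without JM1126. Col17a1 had the highest estimate, 4.47 (SE 1.44, FDR 0.0586), and 2.29 without YZ4. The next highest were Col2a1 (2.56, SE 1.92) and Col11a2 (2.11, SE 0.87), which were -1.79 and 0.22 without YZ7. DESeq2 called Col5a2, Col1a2 and Col3a1 lower and Col17a1 higher, and its own share over all genes was not taken. The median was -1.16 over the 11 fibrillar genes, 8 of which were below 0, and -0.22 without JM1126. It was 0.20 over 6 basement membrane genes, -0.11 over 26 other collagens and 0.0028 over all genes.

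**Figure D4:**
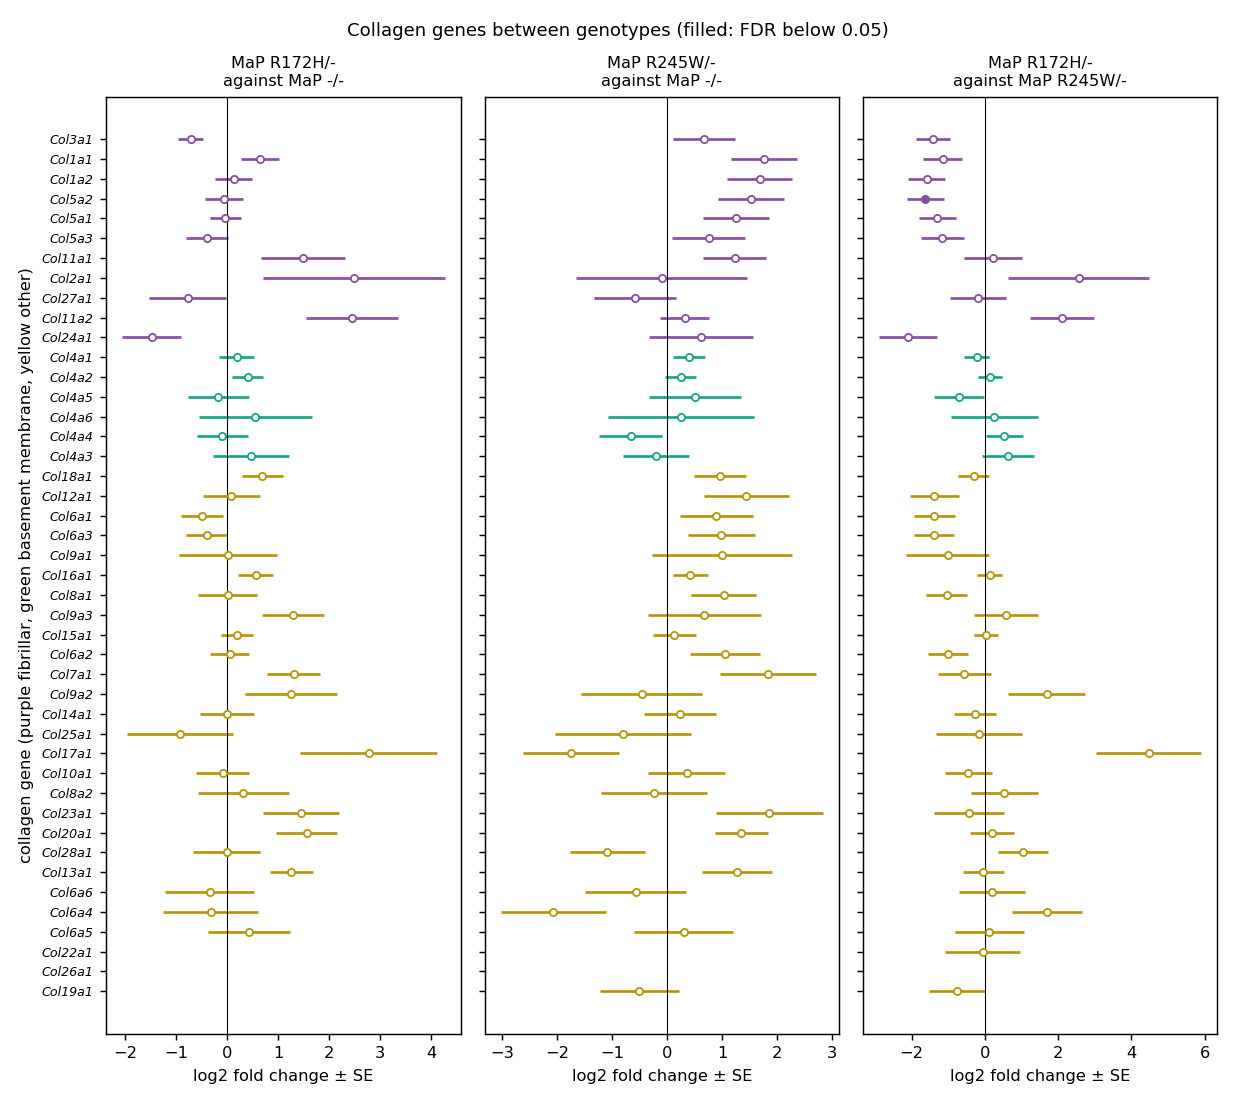
Log2 fold change with SE for each tested collagen gene in the 3 comparisons, each panel on its own axis, with filled points at an FDR below 0.05. The filled point is Col5a2 at -1.63 in MaP R172H/- against MaP R245W/- tumors.

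The most abundant non-fibrillar genes gave no call. Col18a1 ran from 388 to 1060 CPM in MaP R172H/- and from 146 to 873 in MaP -/- tumors, and was at 817, 438, 1418, 636 and 1342 CPM in the MaP R245W/- tumors, again in that order. Its log2 fold change was 0.68 (SE 0.40) in MaP R172H/- and 0.96 (SE 0.47) in MaP R245W/- tumors, both against MaP -/-. Col12a1 was at 2560, 572, 1080, 7520 and 690 CPM in MaP R245W/- tumors and ran from 180 to 1622 CPM in MaP R172H/- and from 135 to 2090 in MaP -/- tumors. Col6a1 had a log2 fold change of -1.38 (SE 0.56, FDR 0.125) and Col6a3 of -1.39 (SE 0.53, FDR 0.109) in MaP R172H/- against MaP R245W/- tumors, and Col6a2 of -1.01 (SE 0.54). Without JM1126 these were -0.85, -0.41 and -0.47. Col4a1, Col4a2, Col4a5 and Col4a6 had FDR of 0.437 or more in every comparison. The largest absolute log2 fold change among these type IV chains was -0.72 (SE 0.69), for Col4a5 in MaP R172H/- against MaP R245W/- tumors.

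Chains of the same collagen type, and Col3a1 with Col1a1, were compared by their ratio within a tumor. Ratios of levels per kilobase were taken for 10 pairs and compared in 30 exact two-sided permutation tests, a family chosen after seeing the data, with adjusted p over all 30. The Col4a1 to Col4a2 ratio ran from 1.65 to 2.64 over 18 tumors, a narrower spread than that of either chain. It was 1.88 ± 0.20 (SD, n = 7) in MaP R172H/-, 2.51 ± 0.12 (SD, n = 5) in MaP R245W/- and 2.24 ± 0.09 (SD, n = 6) in MaP -/- tumors. The highest MaP R172H/- tumor, at 2.16, was below the lowest MaP -/- tumor, at 2.18, and the lowest MaP R245W/- tumor, at 2.35. The adjusted p of the exact permutation test was 0.0350 against MaP -/- and 0.0379 against MaP R245W/- tumors. The Col1a1 to Col1a2 ratio was 1.93 ± 0.23 in MaP R172H/- and 1.37 ± 0.19 in MaP R245W/- tumors (adjusted p 0.0379, exact permutation test). The Col3a1 to Col1a1 ratio was 1.07 ± 0.48 in MaP R172H/- and 2.64 ± 1.15 in MaP -/- tumors (adjusted p 0.0408, exact permutation test), and the adjusted p was 0.0758 (exact permutation test) with the tumors of 1 mouse averaged, since the 6 MaP -/- tumors came from 4 mice. The Col6a1 to Col6a2 and Col9a1 to Col9a2 ratios were also lower in MaP R172H/- than in MaP R245W/- tumors, with adjusted p of 0.0379 and 0.0408 (exact permutation test). Without each tumor in turn, the log2 difference of Col4a1 to Col4a2 ran from -0.29 to -0.23 against MaP -/- and from -0.45 to -0.39 against MaP R245W/- tumors. A smaller group raises the lowest p that a permutation can reach. At that size Col4a1 to Col4a2 against MaP -/- tumors passed in 9 of 13 tests and the other differences in 1 to 3 of 12 or 13.

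Fold changes between genotypes moved with the GC content of genes. In MaP R172H/- against MaP -/- tumors the median log2 fold change was -0.24 in the tenth of genes lowest in GC content and 0.50 in the tenth highest. In MaP R245W/- against MaP -/- tumors the same medians were 0.05 and 0.26. Exon GC content was 57.7% for Col4a1 and 61.1% for Col4a2, 58.9% for Col1a1 and 51.9% for Col3a1. After a correction for GC content, 0 of the 30 ratio tests passed, and the lowest adjusted p was 0.130. The log2 differences past the threshold before it went from -1.26 to -0.91 for Col3a1 to Col1a1 against MaP -/- tumors. Against MaP R245W/- tumors they went from 0.50 to 0.36 for Col1a1 to Col1a2, from -0.37 to -0.32 for Col6a1 to Col6a2 and from -2.12 to -1.80 for Col9a1 to Col9a2. Col4a1 to Col4a2 was then 2.04 ± 0.29, 2.48 ± 0.24 and 2.11 ± 0.14 in MaP R172H/-, MaP R245W/- and MaP -/- tumors. With the same correction edgeR called Col1a2 lower in MaP R172H/- than in MaP R245W/- tumors (log2 fold change -1.66, FDR 0.0489) and did not call Col5a2 (FDR 0.0616). Sequencing platform, which also follows the MaP R172H/- group, cannot be told apart from genotype in these ratios.

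**Figure D5:**
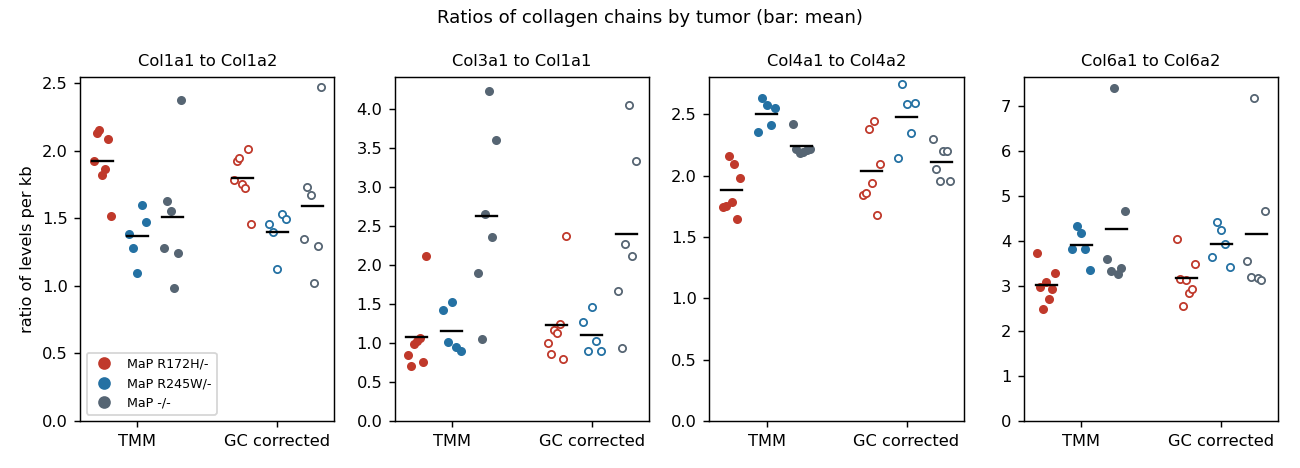
Ratios of collagen chains per kb in each tumor, with a bar at the mean, before (filled) and after (open) correction for GC content. The Col4a1 to Col4a2 means of 1.88 and 2.24 in MaP R172H/- and MaP -/- tumors became 2.04 and 2.11.

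Genes that process, degrade and bind collagen gave few calls. Against MaP -/- tumors, the MaP R172H/- tumors had 0 of 15 hydroxylation and glycosylation genes, 0 of 10 chaperone and export genes, 0 of 7 propeptide removal genes and 0 of 6 crosslinking genes at an FDR below 0.05 with edgeR. Over these 4 lists, 2 genes were higher and 2 lower at an unadjusted p below 0.05 (edgeR), beside 24.7% of all genes. DESeq2 called 1 gene of these lists lower. The degradation list held proteases and also the metalloproteinase inhibitors Timp1, Timp2, Timp3 and Timp4. Of its 10 genes tested, 10 had a log2 fold change below 0, with a median of -1.43 beside 0.0027 over all genes. At an unadjusted p below 0.05 (edgeR) 8 of them were lower, beside 2751 lower of 20954 genes. The FDR threshold was passed by 1 of the 10 with edgeR, beside 4.73% of all genes lower. With DESeq2, whose share over all genes was not taken, 4 passed. Over the 7 lists 3 of 70 genes passed with edgeR, 1 higher and 2 lower, beside 8.4% of all genes. The edgeR call was Ctsk, cathepsin K, a protease that cuts the collagen triple helix, at 22.5 ± 4.6 CPM (SD, n = 7) against 59.0 ± 16.6 (SD, n = 6), a log2 fold change of -1.38 (SE 0.21, edgeR FDR 0.00187). Ddr1, a collagen-binding receptor tyrosine kinase of epithelium, was higher by 0.97 (SE 0.18, edgeR FDR 0.00646). Lum, a proteoglycan that spaces fibrils, was lower by a log2 fold change of -1.98 (SE 0.49, edgeR FDR 0.0253), a call lost without YZ2, YZ10 or JM833-T1. In MaP R245W/- against MaP -/- tumors 0 of 70 genes tested from the 7 lists passed with edgeR and 1, a degradation gene, with DESeq2, while 8 were higher and 1 lower at an unadjusted p below 0.05, beside 11.8% of all genes. In MaP R172H/- against MaP R245W/- tumors the lysyl oxidase Loxl2 (-1.46), the gelatinase Mmp9 (-5.43), Ctsk (-2.27), Lum (-2.60) and the fibril-binding Aspn (-1.26) were lower, with edgeR FDR between 0.0194 and 0.0445, 5 of 71 genes tested beside 6.49% of all genes lower. Without JM1126 none of the 5 passed, with log2 fold changes of -0.995 for Loxl2, -1.4995 for Mmp9, -0.90 for Ctsk, -1.47 for Lum and -1.04 for Aspn (edgeR FDR 0.121 to 0.377). The calls of Loxl2, Lum and Aspn were also lost without YZ2, YZ10, YZ11 or JM1233 and, for 1 or more of them, without YZ3, YZ4, YZ6, YZ7 or RM0014. Mmp13, an interstitial collagenase, was at 6296 CPM in JM663-T2 and 2435 in JM1126, and at most 177 in the other tumors.

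Some fibroblast markers were lower in the MaP R172H/- group than in MaP -/- tumors. Of 12 fibroblast markers, 4 had an FDR below 0.05 and were lower in the MaP R172H/- group than in MaP -/- tumors, among them Twist2 (-4.23), Pdgfra (-2.49) and Lum (-1.98), and 0 were higher, beside 4.73% of all genes lower. Twist2 was low, at 0.373 ± 0.180 CPM (SD, n = 7) against 7.09 ± 12.4 (SD, n = 6). Without each tumor in turn its log2 fold change ran from -4.48 to -2.44, and the call held. Pdgfra was at 48.2 ± 15.9 CPM (SD, n = 7) against 270 ± 353 (SD, n = 6), with 976 CPM in JM779-T1. Its log2 fold change ran from -2.72 to -1.38 in the same way, and the Pdgfra call was lost without YZ2. The list's median log2 fold change was -1.18, and 4 of its 12 markers lay above 0. Of 7 pericyte and vascular smooth muscle markers, 5 lay above 0 in the same comparison, with a median of 0.43, and 0 passed with edgeR. The summed fibroblast level was 292 to 760 CPM (median 460) in MaP R172H/-, 252 to 2557 (median 507) in MaP R245W/- and 293 to 1919 (median 1110) in MaP -/- tumors. No marker of the 12 was at 3 counts or fewer, except 1 in JM1564. Of 8 endothelial markers 2 were lower (Cldn5 and Pecam1) and of 8 immune markers 3 (Itgam, Ptprc and Adgre1), and the Cldn5 call was lost without 10 of the 13 tumors, each left out in turn. Summed skeletal muscle markers were at 1165 CPM in JM1233, 205 in JM1133, 48.8 in JM1126, 8.41 in JM1564 and 4.39 in RM0014. The MaP R172H/- tumors were at 3.21 to 18.7 CPM, a range that held JM1564 and RM0014. With edgeR, 7 of 7 tested were lower in MaP R172H/- than in MaP R245W/- tumors, beside 6.49% of all genes lower. Of 11 epithelial markers, 11 lay above 0 in MaP R172H/- against MaP -/- tumors, 2 were higher at an unadjusted p below 0.05, and 0 passed with edgeR and 1 with DESeq2. The part of cell content in the collagen values was not tested.

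By histology, collagen levels did not sort into separate ranges. Histology comes from the study's tumor list and no test was made on it. The 7 metaplastic triple-negative tumors had collagen shares of 1.17 to 2.65% (median 1.27%). Of the nonmetaplastic triple-negative tumors, the sarcoma JM1126 was at 4.84% and the adenocarcinoma JM1564 at 0.895%, respectively above and below every metaplastic tumor. JM836-T1 and JM779-T1, whose histology is open because the labels and the list name different tumors of those mice, were at 1.73 and 1.05%. The nonmetaplastic MaP R172H/- adenocarcinomas, at 0.603 to 1.68%, covered the values of JM1564 and of 6 of the 7 metaplastic tumors. The fibrillar share of collagen counts was 61.0% in JM1126 and 60.6% in JM1233, both MaP R245W/-, against 33.4 to 46.0% in the other MaP R245W/- tumors.

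Tumors of 1 mouse were not alike in every collagen. Over 44 genes the median absolute log2 difference was 0.83 between the tumors of JM663 and 0.67 between those of JM833. In 13 pairs of MaP -/- tumors from different mice it ran from 0.69 to 1.64 (median 0.99). JM663-T1 and JM663-T2 differed most in Col4a6, at 412 and 21.3 CPM. JM833-T1 and JM833-T2 differed most in Col2a1, at 3.21 and 136 CPM.

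For 30 of the 44 genes another annotated gene overlaps the locus, for 20 of them on the opposite strand. The libraries were stranded, but the strand setting of the counting is not given in the sources used here, so reads of opposite-strand partners may not be separated. The annotated starts of Col4a1 and Col4a2 overlap by 318 bases on chromosome 8 and those of Col4a3 and Col4a4 by 104 bases on chromosome 1, while Col4a5 and Col4a6 start 1281 bases apart on chromosome X. Each of these pairs is transcribed in opposite directions.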

How the data were processed

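Total RNA of 18 mouse mammary tumors was depleted of ribosomal RNA and sequenced as stranded libraries. According to the submitters' notes, FastQC 0.11.9, STAR 2.7.10b (GRCm39) and RSEM 1.3.3 (GENCODE M34) were used. RSEM's expected counts were deposited by the authors as whole numbers, with no normalization, from 23113578 to 37365062 per tumor. Samples were grouped by the genotype in the labels. Genes were matched to GENCODE M39 by identifier (56620 of 57126), which gave coordinates, exon lengths and biotypes.

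Levels are CPM with TMM library sizes, and CPM per kb use the union of exons. A separate fit compared each mutant with the MaP -/- tumors, and the mutants with each other in a fit of all 18 tumors, with the quasi-likelihood test of edgeR 4.0.16 in R 4.3.3 after filterByExpr. Benjamini-Hochberg adjustment ran over all genes tested, at an FDR threshold of 0.05. Shares over all genes are those of edgeR, so DESeq2 calls on collagen or list genes have no such share beside them. The 44 members, the gene lists and the tests were chosen with earlier results of these data known. Genes named were those past the threshold, the 3 highest of each class by CPM per kb, the 3 largest rises and falls per comparison and their partner chains. From each gene list, up to 3 members past the threshold were named per comparison. Col20a1, Col13a1, Col9a1 and the genes of single tumors (among them Lamp1, Cul4a, Tfdp1, Sox6, Sox10 and Mmp13) were named after their values were seen. The chain ratios, the GC content correction (20 bins of genes) and the class medians and list genes without single tumors were chosen after seeing the data. On simulated data, edgeR found 43 of 100 genes raised by 1.5 on the log2 scale for MaP R172H/- against MaP -/- tumors (20954 genes) and 26 of 100 for MaP R245W/- against MaP -/- tumors (21452 genes). For the comparison of the mutants it found 42 of 100 (22481 genes). Of genes lowered by 3 on the log2 scale it found 69, 72 and 75 of 100, in the same order of comparisons. The changed genes were drawn at random from all genes tested. Recovery of collagen genes, which varied more between tumors, was not simulated.

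The alternatives were DESeq2 1.42.0, its size factors in edgeR, other filters on low counts, protein-coding genes only, tumors of 1 mouse summed, other fits, a fold change threshold of 2 on the log2 scale, and each tumor left out in turn. Python 3.11.15 with numpy 2.4.6, pandas 2.3.3, scipy 1.17.1 and matplotlib 3.10.9 made the remaining tables and the figures.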

Additional observations from a re-analysis of the deposited data

Results flagged for a closer look

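Within each genotype, collagen levels and shares were searched for a tumor far from the rest, by the gap to its nearest neighbour relative to the group's range on the log2 scale. Of 138 groups searched, 19 held such a tumor, and about 1 in 20 would by chance.

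In YZ7, Col2a1 (1134.5 CPM, against at most 18.4 in the other MaP R172H/- tumors), Col11a2 (169 CPM), Col6a6 (13.0 CPM) and Col22a1 (2.42 CPM) stood above their group. In YZ11, Col6a1 (113.5 CPM), Col6a2 (65.1 CPM), Col15a1 (92.0 CPM) and the share of other collagens (0.233%) stood below it. In YZ4, Col4a3 was at 5.76 CPM against at most 0.848 in the rest of the group.

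In JM1126, Col7a1 (1200.2 CPM), Col13a1 (14.2 CPM) and Col17a1 (10.3 CPM) stood above the other MaP R245W/- tumors and Col4a5 (18.5 CPM) below them. In JM1233, Col15a1 was low at 76.3 CPM and Col22a1 high at 1.58 CPM. In JM1564, Col28a1 was low at 0.865 CPM.

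In MaP -/- tumors, Col1a2 was low in JM779-T1 (295 CPM, against at least 968), Col4a3 was high in JM833-T1 (3.39 CPM) and the share of all collagens was high in JM836-T1 (1.73%).

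Col5a2 differed between the mutants in the direct test, with a log2 fold change of -1.63 in MaP R172H/- against MaP R245W/- tumors (FDR 0.0492, edgeR), a call lost without any 1 of 9 of the 12 mutant tumors.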

How the results depend on the processing

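Of 470 values recomputed under alternatives that left out no tumor, 434 kept their direction and side of the threshold or, for untested values, moved by less than the spread between tumors. The Col5a2 call in MaP R172H/- against MaP R245W/- tumors was lost without a filter on low counts, with at least 10 counts in every tumor, with protein-coding genes only, with tumors of 1 mouse summed, in a fit of the 2 groups alone and with a log2 fold change above 2 required, each giving 0 genes lower. Its FDR under these refits ran from 0.0537 to 0.0775. The DESeq2 Wald test gave 1 higher and 3 lower there, and 1 higher and 1 lower in MaP R172H/- against MaP -/- tumors. The cause was not tested.

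Direction turned under the GC content correction for Col1a2 (-0.18), Col4a1 (-0.22) and Col4a2 (-0.22) in MaP R172H/- against MaP -/- tumors, for Col4a2 in MaP R245W/- against MaP -/- (-0.071) and in MaP R172H/- against MaP R245W/- tumors (-0.17), for the log2 Col3a1 to Col1a1 ratio in the last of these (0.082) and for Col11a1 to Col11a2 in the first (0.12). With DESeq2 Col2a1 turned in MaP R172H/- against MaP R245W/- tumors (-1.68).

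Leaving out 1 tumor at a time gave 0 genes higher and 0 to 1 lower in MaP R172H/- against MaP -/- tumors, the 1 being Col3a1 without JM663-T1. It gave 0 in MaP R245W/- against MaP -/- tumors. In MaP R172H/- against MaP R245W/- tumors it gave 0 to 1 higher (Col17a1 without YZ7) and 0 to 3 lower. Col5a2, Col1a2 and Col3a1 were called without JM1564 or without JM1133, Col5a2 without RM0014, and Col1a2 without YZ3. None was called lower without any other tumor. Collagen shares ran from 1.22 to 1.40% in MaP R172H/-, 1.59 to 2.58% in MaP R245W/- and 1.20 to 1.33% in MaP -/- tumors.

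Direction turned without 1 tumor at least, with these ranges of log2 values, in MaP R172H/- against MaP -/- tumors for Col1a2 (-0.11 to 0.32), Col2a1 (-1.85 to 4.15), Col4a1 (-0.11 to 0.32), Col4a5 (-0.44 to 0.42), Col5a2 (-0.26 to 0.25), Col6a1 (-0.66 to 0.0019), Col12a1 (-0.15 to 0.51), Col25a1 (-1.56 to 0.038), the log2 ratios Col5a1 to Col5a2 (-0.31 to 0.37), Col6a3 to Col6a1 (-0.24 to 0.08) and Col8a1 to Col8a2 (-1.26 to 0.0057). It turned in MaP R245W/- against MaP -/- tumors for Col4a2 (-0.0099 to 0.36), Col23a1 (-0.35 to 2.16), the log2 ratios Col1a1 to Col1a2 (-0.21 to 0.040), Col6a1 to Col6a2 (-0.13 to 0.10) and Col6a3 to Col6a1 (-0.11 to 0.38). It turned in MaP R172H/- against MaP R245W/- tumors for Col2a1 (-1.79 to 3.48), Col4a2 (-0.065 to 0.37) and the log2 ratio Col6a3 to Col6a1 (-0.43 to 0.035).

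The 6 ratio differences past the threshold kept their direction without each tumor, with adjusted p of 0.0303 to 0.0899 (exact permutation test). With tumors of 1 mouse averaged, Col4a1 to Col4a2 in MaP R172H/- against MaP -/- tumors had an adjusted p of 0.0455 and Col3a1 to Col1a1 of 0.0758 (exact permutation test). No paired analysis was possible because the labels give the groups no shared replicate numbers.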
